A study of Mus musculus with 12 samples.

Results

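The genes described here are microRNA genes measured in short RNA of embryonic stem (ES) cells, outside the microRNA groups named below. They are the rows named Mir and a number whose larger short RNA value reached 10 FPKM (fragments per kilobase of gene and per 1000000 fragments). Left out were the chromosome 12 Dlk1-Dio3 region, the miR-290 and miR-302 groups with Mir367, 3 X chromosome genes (Mir92-2, Mir363 and Mir18b), Mir320, Mir484, Mir5099, host transcripts, and a stretch of chromosome 2 that carries a repeated microRNA array. This kept 93 of the 353 microRNA rows in tables of 36883 rows. Mir20b and Mir19b-2, also on the X chromosome, were kept. The genes were thus chosen by their short RNA values, which are given as a description and were not tested.

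The RNA came from mouse ES cells, a cultured cell type taken from the early embryo and able to give rise to every tissue. Drosha-deficient ES cells were set against wild-type ES cells. For the methylation samples the labels give the wild-type line as AB1 on the 129Sv/Ev background and the Drosha-deficient line as derived from AB1; the RNA labels give only the genotype. Both grew in medium with serum and leukemia inhibitory factor. The sources used here do not give how Drosha was disrupted or in how many clones. Each genotype has 1 library of short RNA, 1 of poly(A)-selected mRNA and 1 of long RNA, so no difference has a replicate check and no p-value is given. A gene is called higher or lower where log2((Drosha-deficient FPKM + 1)/(wild-type FPKM + 1)) is at least 1 in size, which is 2-fold, in a row that the authors' status column marks OK and with at least 1 FPKM in 1 of both libraries.

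A microRNA gene is transcribed as a long primary transcript. In the nucleus the ribonuclease Drosha and its partner Dgcr8 cut a hairpin out of it, Xpo5 exports the hairpin, Dicer1 trims it to a short duplex, and 1 strand is loaded onto an Argonaute protein. The loaded strand finds messenger RNAs through its seed, bases 2 to 8, and represses them. Loss of Drosha removes hairpins that need this cut, while a few hairpins are made by other routes.

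The mature sequences below belong to the genes that carry most of the wild-type signal, to those that kept the largest shares in Drosha-deficient cells, and to the neighbours and seed relatives with which they are compared. Sequences are from RefSeq on GRCm38.p6, written 5′ to 3′ with the seed in capitals. The tables count a whole hairpin, so the values that follow are not split by arm.
miR-183-5p: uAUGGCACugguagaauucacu
miR-96-5p: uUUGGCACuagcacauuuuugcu
miR-182-5p: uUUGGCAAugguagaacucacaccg
miR-148a-3p: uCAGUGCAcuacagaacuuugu
miR-7a-5p: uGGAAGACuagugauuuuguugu
miR-7b-5p: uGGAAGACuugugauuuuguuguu
miR-30a-5p: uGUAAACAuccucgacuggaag
miR-20b-5p: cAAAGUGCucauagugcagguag
miR-181d-5p: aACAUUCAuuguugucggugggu
miR-27a-3p: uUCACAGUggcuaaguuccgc
miR-23a-3p: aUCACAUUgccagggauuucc
miR-34a-5p: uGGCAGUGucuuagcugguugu
miR-34b-5p: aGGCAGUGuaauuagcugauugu
miR-503-5p: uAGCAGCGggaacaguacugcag
miR-322-5p: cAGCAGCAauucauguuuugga
miR-221-3p: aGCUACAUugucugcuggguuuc
miR-222-3p: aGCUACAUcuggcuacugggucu
The neighbours miR-183 and miR-96 differ in seed, and so do the neighbours miR-503 and miR-322; miR-7a and miR-7b, miR-34a and miR-34b, and miR-221 and miR-222 share theirs.

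The 93 genes lie on 19 chromosomes, with 22 on the X, and their hairpins are 58 to 132 bases long. Of them, 77 matched a RefSeq hairpin outside chromosome 18 and gave 140 mature sequences with 124 different seeds. On GRCm38, Mir182, Mir96 and Mir183 lie on the minus strand at chr6:30165918-30169737, Mir148a on the minus strand at chr6:51269812-51269910 and Mir7-2 on the plus strand at chr7:78888277-78888373. Mir30a lies on the plus strand at chr1:23272264-23272345, Mir99b at chr17:17830188-17830257, and the group from Mir450b to Mir322 at chrX:53047997-53054349. Of the 124 seeds, 15 were held by 2 or more of the genes, and 27 of the 77 genes held at least 1 shared seed. Among the sequences matched, ACAUUCA was held by Mir181a-2, Mir181b-2 and Mir181d; Mir181c was not matched. The seed AAAGUGC of Mir20b is also that of Mir17 and Mir20a. For 16 genes a mature sequence is identical to that of another gene, among them Mir7-2 with Mir7-1, Mir19b-2 with Mir19b-1 and Mir138-1 with Mir138-2. The sources used here do not say how the authors assigned reads that match such copies, so values of these genes are uncertain.

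In short RNA, 87 of the 93 genes were lower in Drosha-deficient cells than in wild-type cells, 2 were higher and 4 were neither. Of all 2597 rows compared in short RNA, 18.4% were lower, 14.8% were higher and 33.2% were called in either direction; since short RNA chose the genes, nothing is read from the contrast. The median log2 difference of the 93 genes was -5.39, against -0.03 over all rows compared. In Drosha-deficient cells 59 of the 93 genes were listed at 0, and in wild-type cells none was. Among the 705 rows of other names that also reached 10 FPKM in short RNA, 141 were lower and 139 higher, with a median log2 difference of 0.11. The 49 microRNA rows of 10 FPKM or more that were left out had 46 lower, 2 higher and 1 neither, with a median of -8.55.

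The FPKM values step in whole fragments for a gene of given length, which gave back the number of fragments behind each value and, from it, fragments per 1000000 fragments of the library (FPM). In the short RNA libraries 1 fragment did not stand for the same FPKM. On a gene of 80 bases it stood for 17.5 FPKM in Drosha-deficient cells, against 6.54 FPKM in wild-type cells. On a gene of 100 bases it stood for 9.31 FPKM in Drosha-deficient cells, against 4.84 FPKM in wild-type cells. The worth of a fragment in longer rows corresponds to a mean fragment length of 70 bases for the Drosha-deficient library, against 24 bases for the wild-type library, as used by the authors' software. On these short genes an equal number of fragments thus gave a higher FPKM in Drosha-deficient cells than in wild-type cells, and fragment numbers are given beside the FPKM values. The same held to a smaller degree in the other fractions. On a gene of 80 bases 1 fragment stood for 2.00 FPKM in Drosha-deficient mRNA, against 1.59 FPKM in wild-type mRNA. In long RNA it stood for 1.77 FPKM in Drosha-deficient cells, against 1.46 FPKM in wild-type cells. The short RNA libraries held about 3178000 fragments from Drosha-deficient cells and 2726000 from wild-type cells. The FPM scale was added after the values had been seen.

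**Figure D1:**
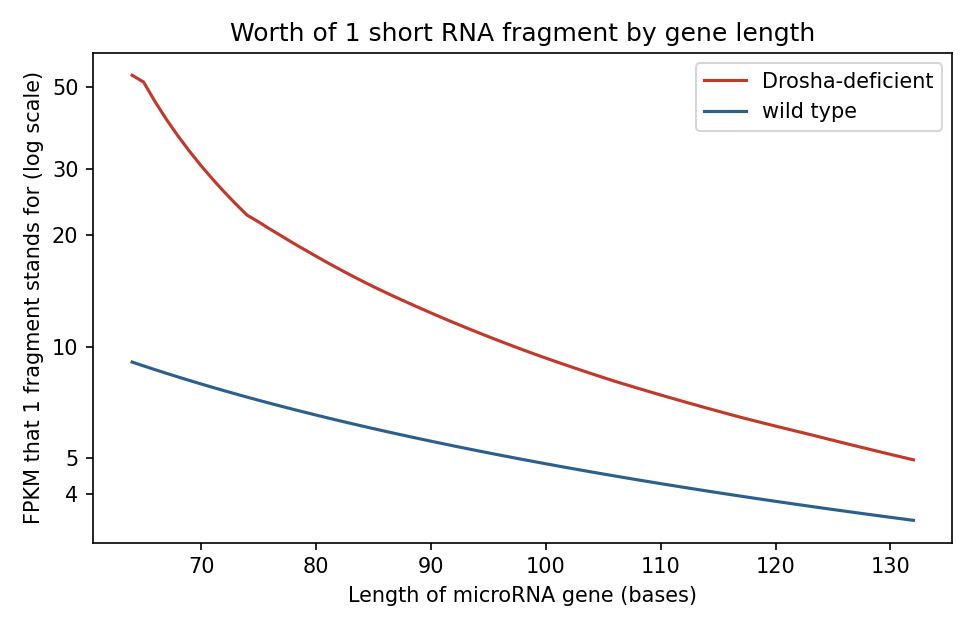
FPKM that 1 fragment stands for (y axis, log scale) by length of the microRNA gene in bases (x axis) in the short RNA libraries of Drosha-deficient cells (red) and wild-type cells (blue). The red line lies above the blue one at every length drawn, 17.5 FPKM against 6.54 FPKM at 80 bases.

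By this scale the 92 genes with a fragment estimate summed to 1360 fragments in Drosha-deficient cells, against 138635 in wild-type cells. That was 428 FPM in Drosha-deficient cells, against 50855 FPM in wild-type cells. Of the 92 genes, 89 were lower by 2-fold or more, 1 was higher and 2 were neither. With at least 10 fragments in 1 of both libraries, 59 of 59 genes were lower by FPM, and 57 of the 59 were lower by FPKM. All of these reached 10 fragments in wild-type cells. No share over all rows was computed by FPM or at 10 fragments, so nothing is read from these counts. The wild-type signal was concentrated: Mir148a, Mir7-2 and Mir183 held 76.1% of the summed fragments.

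Mir183, Mir148a and Mir7-2 had the highest levels. Mir183, with Mir96 and Mir182 a microRNA of sensory hair cells and photoreceptors, had 2423 FPKM (79 fragments) in Drosha-deficient cells, against 243378 FPKM (30675 fragments) in wild-type cells. Mir148a, which in human cells is reported to repress the DNA methyltransferase DNMT3B, had 95.5 FPKM (10 fragments) in Drosha-deficient cells, against 190794 FPKM (38914 fragments) in wild-type cells. Mir7-2, a source of the neuronal and endocrine microRNA miR-7a, had 5126 FPKM (509 fragments) in Drosha-deficient cells, against 181082 FPKM (35954 fragments) in wild-type cells. These genes stood close together in wild-type cells and far apart in Drosha-deficient cells. In FPM Mir148a kept 0.022% of its wild-type rate (95% interval 0.011 to 0.041%), Mir183 0.221% (0.175 to 0.275%) and Mir7-2 1.21% (1.11 to 1.33%). These intervals are exact (Clopper-Pearson) and cover counting error of these libraries only, since reads were not counted by molecular identifiers. They leave out error in the worth of 1 fragment. At its length of 70 bases the Drosha-deficient estimate of Mir183 is less certain than on longer genes.

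The next genes in level showed the same spread. Mir30a, a regulator of autophagy, had 5568 FPKM (344 fragments) in Drosha-deficient cells, against 33408 FPKM (5284 fragments) in wild-type cells. It was the highest of the 93 genes in Drosha-deficient cells by FPKM, and Mir7-2 was the highest by fragments. Mir20b, a relative of miR-17 in a second copy of that cluster on the X, had 105 FPKM (6 fragments) in Drosha-deficient cells, against 30105 FPKM (4600 fragments) in wild-type cells. Mir99b, of the family that represses mTOR, was at 0 in Drosha-deficient cells, against 22993 FPKM (2898 fragments) in wild-type cells. Set against a floor of 3 fragments per library, Mir99b was at least 1126-fold lower in FPM.

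**Figure D2:**
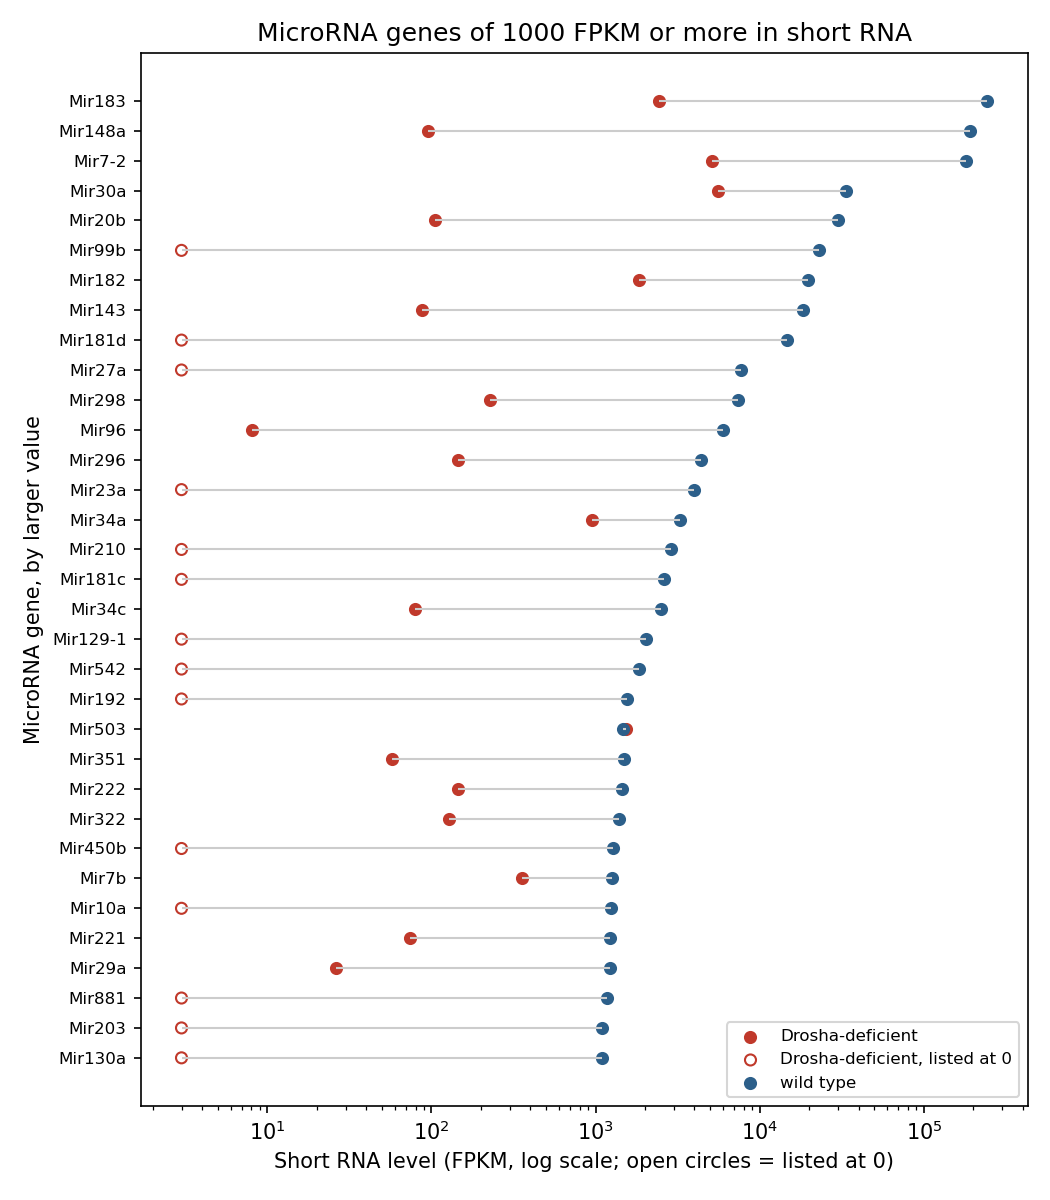
Short RNA level in FPKM (x axis, log scale) of the 33 microRNA genes of 1000 FPKM or more, ordered by the larger value, in Drosha-deficient cells (red) and wild-type cells (blue); open circles mark genes listed at 0 in Drosha-deficient cells. Mir503 alone of the 33 has its red point at its blue point, 1543 FPKM in Drosha-deficient cells against 1476 FPKM in wild-type cells.

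Of the 33 genes of 1000 FPKM or more, 14 were listed at 0 in Drosha-deficient cells. Mir181d, of the family that tunes T cell receptor signalling, had 0 fragments in Drosha-deficient cells, against 14682 FPKM (1929 fragments) in wild-type cells, at least 750-fold lower. The neighbour of Mir181d, Mir181c, had 0 fragments in Drosha-deficient cells, against 2607 FPKM (581 fragments) in wild-type cells. Mir27a and Mir23a, neighbours on chromosome 8, both had 0 fragments in Drosha-deficient cells, against 1325 and 557 fragments in wild-type cells. Mir210, the microRNA induced by low oxygen, had 0 fragments in Drosha-deficient cells, against 669 fragments in wild-type cells, at least 260-fold lower. The share of genes at 0 was larger at low level: 32 of 37 genes between 10 and 100 FPKM, 13 of 23 up to 1000 FPKM, 12 of 24 up to 10000 FPKM and 2 of 9 above that. For the low genes a value of 0 is what a few fragments lost would give, and no limit on their loss can be set below the 3 fragments that a count of 0 allows.

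The share kept was measured best in the 41 genes with at least 100 wild-type fragments. Its median was 0.15%, with 17 genes at 0 and 27 under 1%. Only 5 of the 41 kept over 5%. Mir503, a repressor of cyclins encoded beside Mir322, kept 24.8% (95% interval 18.05 to 33.7%), with 55 fragments in Drosha-deficient cells against 190 in wild-type cells; at its length of 71 bases the Drosha-deficient estimate is less certain than on longer genes. Mir7b, which makes a microRNA with the seed of miR-7a, kept 14.2% (10.3 to 19.3%), with 49 fragments in Drosha-deficient cells against 296 in wild-type cells. Mir34a, a p53 target that slows the cell cycle, kept 13.2% (10.6 to 16.2%), with 107 fragments in Drosha-deficient cells against 697 in wild-type cells. Mir1983 kept 11.7% (6.59 to 19.4%), with 17 fragments in Drosha-deficient cells against 125 in wild-type cells. Mir30a kept 5.58% (4.99 to 6.23%). The intervals of these 5 genes do not reach those of Mir183, Mir148a or Mir7-2.

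**Figure D3:**
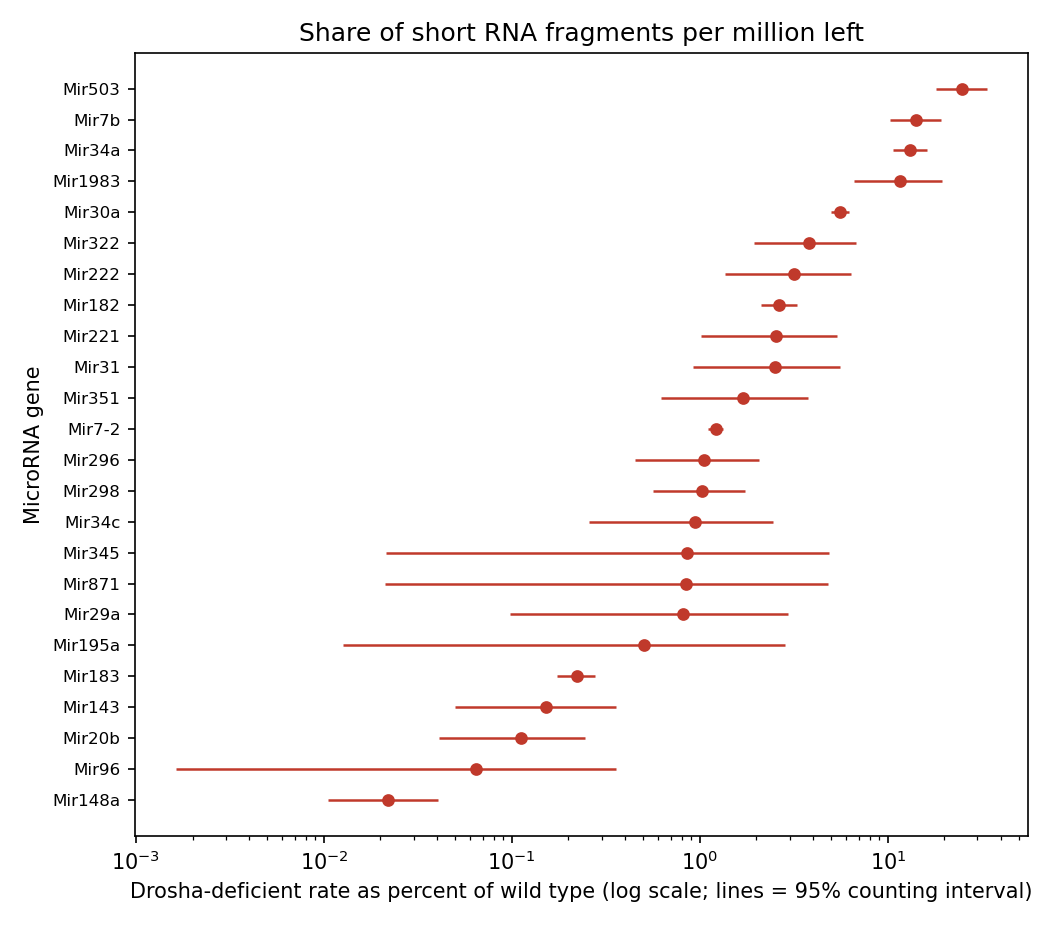
Share of the wild-type short RNA rate, in FPM, that was left in Drosha-deficient cells (x axis, percent, log scale) for the 24 of 41 microRNA genes with at least 100 wild-type fragments that were not at 0 in Drosha-deficient cells; lines are exact 95% counting intervals. Shares run from 0.022% for Mir148a to 24.8% for Mir503.

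Seed relatives did not keep equal shares. Mir7-2 kept 1.21% and Mir7b 14.2%, although miR-7a-5p and miR-7b-5p begin with the same seed. Of the miR-34 genes, Mir34a kept 13.2% and Mir34c 0.945% (0.256 to 2.44%), with 4 fragments in Drosha-deficient cells against 363 in wild-type cells. Mir34b had 0 fragments in Drosha-deficient cells against 23 in wild-type cells. Its interval, 0 to 14.9%, includes the share of Mir34a. All 4 miR-181 genes of the set were at 0 in Drosha-deficient cells, but Mir181a-2 and Mir181b-2 had only 2 and 10 wild-type fragments. Mir221 and Mir222, which repress the cell cycle inhibitor p27 (Cdkn1b) and lie side by side, kept 2.56% (1.02 to 5.35%) and 3.18% (1.35 to 6.37%), and these intervals overlap.

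Genes that lie together were also unequal. Within 10 kb of each other lay 40 of the 93 genes, in 15 groups. In the group of Mir183, Mir96 and Mir182, Mir96 kept 0.064% (1 fragment in Drosha-deficient cells against 1332 in wild-type cells). Mir182 of the same group kept 2.65% (2.11 to 3.29%), with 85 fragments in Drosha-deficient cells against 2750 in wild-type cells, and its interval lies above those of Mir183 and Mir96. In the X chromosome group of Mir322, Mir503, Mir351, Mir542, Mir450b and Mir450-1, Mir503 kept 24.8%, Mir322 3.81% (1.95 to 6.77%) and Mir351 1.70% (0.621 to 3.75%). Mir542 (304 wild-type fragments), Mir450b (201) and Mir450-1 (5) of that group were at 0 in Drosha-deficient cells. The imprinted neighbours Mir296, reported in mouse ES cells to repress Nanog, and Mir298 kept 1.05% (0.4504 to 2.08%) and 1.03% (0.563 to 1.74%). The X chromosome group of Mir471, Mir741, Mir878, Mir881, Mir871 and Mir470 summed to 1 fragment in Drosha-deficient cells, against 375 in wild-type cells.

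Mir143 and Mir145a, neighbours known from smooth muscle and fibroblasts, had 5 and 0 fragments in Drosha-deficient cells, against 2807 and 149 fragments in wild-type cells. Markers of fibroblasts moved the same way: of 9 such genes, 6 were lower in mRNA and 7 in long RNA, and none was at 0 in either genotype. Of all rows compared, 7.93% were lower in mRNA and 6.89% in long RNA. The summed mRNA level of the 9 markers was 285 FPKM in Drosha-deficient cells, against 549 FPKM in wild-type cells. In long RNA it was 148 FPKM in Drosha-deficient cells, against 308 FPKM in wild-type cells. Fn1 and Vim made up most of each sum and were not called in mRNA. Their mRNA levels were 179 and 90.5 FPKM in Drosha-deficient cells, against 209 and 154 FPKM in wild-type cells. Col1a2, which encodes a chain of type I collagen, had 0.116 FPKM in Drosha-deficient mRNA, against 19.6 FPKM in wild-type mRNA. The part of such cells in the values of any microRNA gene here was not tested. In bulk RNA, fewer cells of a type and less RNA per cell cannot be told apart. Some microRNAs known from other tissues were measured in wild-type cells. Mir122a of liver had 7 fragments, Mir375 of pancreatic islets 49, Mir150 of lymphocytes 70 and Mir1a-1 of muscle 122. Of these, Mir375 and Mir150 had 2 fragments each in Drosha-deficient cells, and Mir122a and Mir1a-1 had 0.

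By FPKM, 6 genes were not lower in short RNA. Mir503 had 1543 FPKM in Drosha-deficient cells, against 1476 FPKM in wild-type cells, and Mir344b had 115 FPKM against 112 FPKM. By fragments both were lower, with log2 differences in FPM of -2.001 for Mir503 and -2.54 for Mir344b (2 fragments in Drosha-deficient cells, 12 in wild-type cells). Mir138-1 had 28.7 FPKM (3 fragments) in Drosha-deficient cells, against 34.3 FPKM (7 fragments) in wild-type cells, and Mir3968 18.6 FPKM (2 fragments) against 14.5 FPKM (3 fragments). In FPM the log2 difference was -1.32 for Mir138-1, past the 2-fold line, and -0.71 for Mir3968. Mir5136 was higher by FPKM, with 124 FPKM (6 fragments) in Drosha-deficient cells, against 28.2 FPKM (4 fragments) in wild-type cells; its log2 difference in FPM was 0.31. Mir8105 was higher with 38.1 FPKM (3 fragments) in Drosha-deficient cells, against 5.65 FPKM (1 fragment) in wild-type cells. At 1 to 7 fragments a difference of this size was not detectable: the interval of the Drosha-deficient rate runs from 30.5 to 620% of the wild-type rate for Mir5136 and from 20.7% upward for Mir8105. Their mature sequences are as follows, with the seed in capitals, and no seed is shared among them.
miR-344b-3p: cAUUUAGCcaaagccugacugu
miR-3968: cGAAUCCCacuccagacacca
miR-5136: aUAUGCGAgggaacuacugg
miR-8105: aGGCGACUggcgagacccgaag

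**Figure D4:**
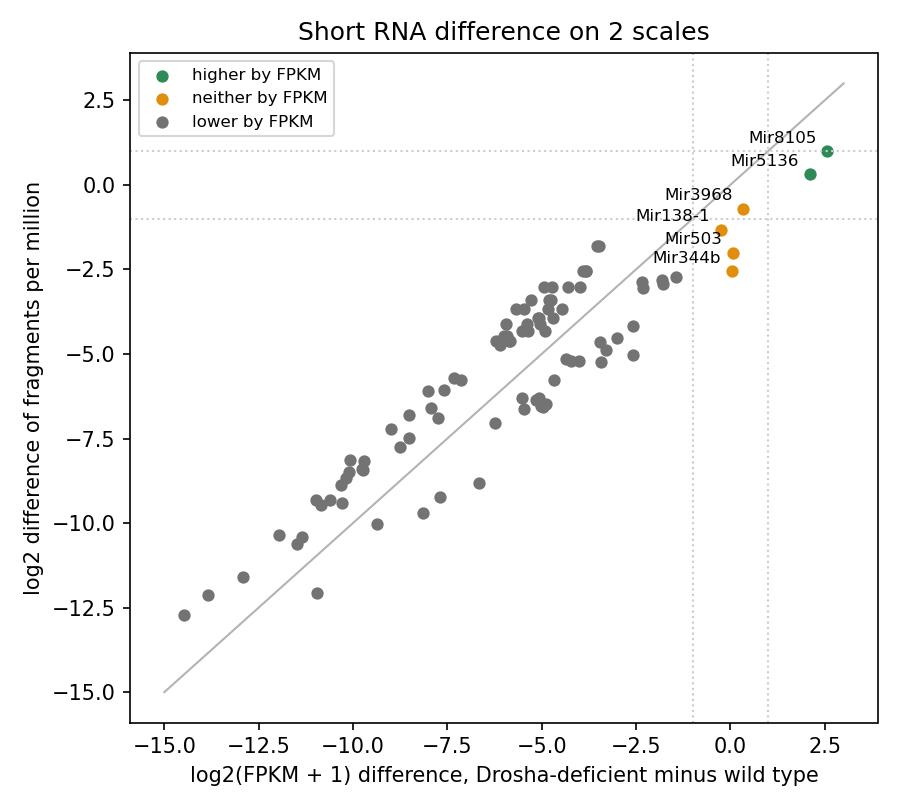
Difference of Drosha-deficient minus wild-type short RNA on the log2(FPKM + 1) scale (x axis) and as log2 of FPM (y axis) for the 92 microRNA genes with a fragment estimate; dotted lines mark 2-fold and the diagonal marks equal values. The 6 named genes, higher (green) or neither (orange) by FPKM, all lie below the diagonal, Mir503 at 0.06 on the x axis and -2.001 on the y axis.

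At the edge of the choice, the genes just inside were Mir5615-2, Mir7240 and Mir138-2, each at 0 in Drosha-deficient cells, against 10.1, 10.6 and 13.1 FPKM in wild-type cells. Just outside were Mir7685 and Mir3083, at 0 in Drosha-deficient cells and 9.55 and 9.09 FPKM in wild-type cells, and Mir6239 with 8.26 FPKM in Drosha-deficient cells and 0 in wild-type cells. Such values are 1 or 2 fragments. A further 205 microRNA rows outside the groups left out were under 10 FPKM, 191 of them at 0 in both libraries.

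In long RNA, where the rule used no value, most of the measured genes were also lower. Of 48 genes compared, 30 were lower in Drosha-deficient cells, 6 were higher and 12 were neither, while 43 of the 93 were at 0 in both libraries. Over all 13933 rows compared in long RNA, 6.89% were lower, 6.26% higher and 13.1% called in either direction. The median log2 difference of the 48 was -1.83, against -0.04 over all rows. With at least 10 fragments in 1 of both libraries, 16 of 21 genes were lower, none was higher and 5 were neither. By FPM, 17 were lower and 4 neither. Most of the 21 reached 10 fragments only in wild-type cells. No share over all rows was computed at that limit or by FPM. The 49 microRNA rows left out had 26 lower and 9 higher of 48 compared, with a median of -1.51. The sum over the 93 genes was 865 fragments in Drosha-deficient cells, against 1661 in wild-type cells, and most of it lay in Mir6236 with 707 fragments in Drosha-deficient cells and 853 in wild-type cells. Mir6236 was listed among microRNA names whose sequence lies in ribosomal or transfer RNA. Without it the sum was 158 fragments in Drosha-deficient cells, against 808 in wild-type cells.

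Mir99b had the widest long RNA difference of the 93 genes on the log2(FPKM + 1) scale. It had 0 fragments in Drosha-deficient cells, against 409 FPKM (210 fragments) in wild-type cells (95% interval of the share kept 0 to 1.47%). Mir183 had 18.2 FPKM (7 fragments) in Drosha-deficient cells, against 193 FPKM (99 fragments) in wild-type cells, and kept 5.87% (95% interval 2.30 to 12.5%). Mir7-2 had 3.29 FPKM (3 fragments) in Drosha-deficient cells, against 55.4 FPKM (55 fragments) in wild-type cells, and kept 4.53% (0.906 to 13.9%). Each of these genes was lower in short RNA as well, at far more fragments.

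Mir296 had 21.9 FPKM (12 fragments) in Drosha-deficient cells, against 70.4 FPKM (47 fragments) in wild-type cells. Its neighbour Mir298 had 9.92 FPKM (6 fragments) in Drosha-deficient cells, against 49.96 FPKM (36 fragments) in wild-type cells. Mir148a had 2 fragments in Drosha-deficient cells, against 28 in wild-type cells. The group of Mir296 and Mir298 thus kept more in long RNA (21.2 and 13.8%) than in short RNA (1.05 and 1.03%), where the tables were normalized separately and the difference was not tested. Mir328, Mir23a, Mir222, Mir129-1, Mir181d and Mir210 had 0 fragments in Drosha-deficient cells, against 23, 18, 16, 13, 12 and 11 fragments in wild-type cells. Together, 29 genes were lower in both short and long RNA, and 5 were lower in short RNA and higher in long RNA. A long RNA library made with a small RNA kit, as the labels state, does not tell primary transcripts from mature microRNAs, so what the fragments on these hairpins are was not tested.

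**Figure D5:**
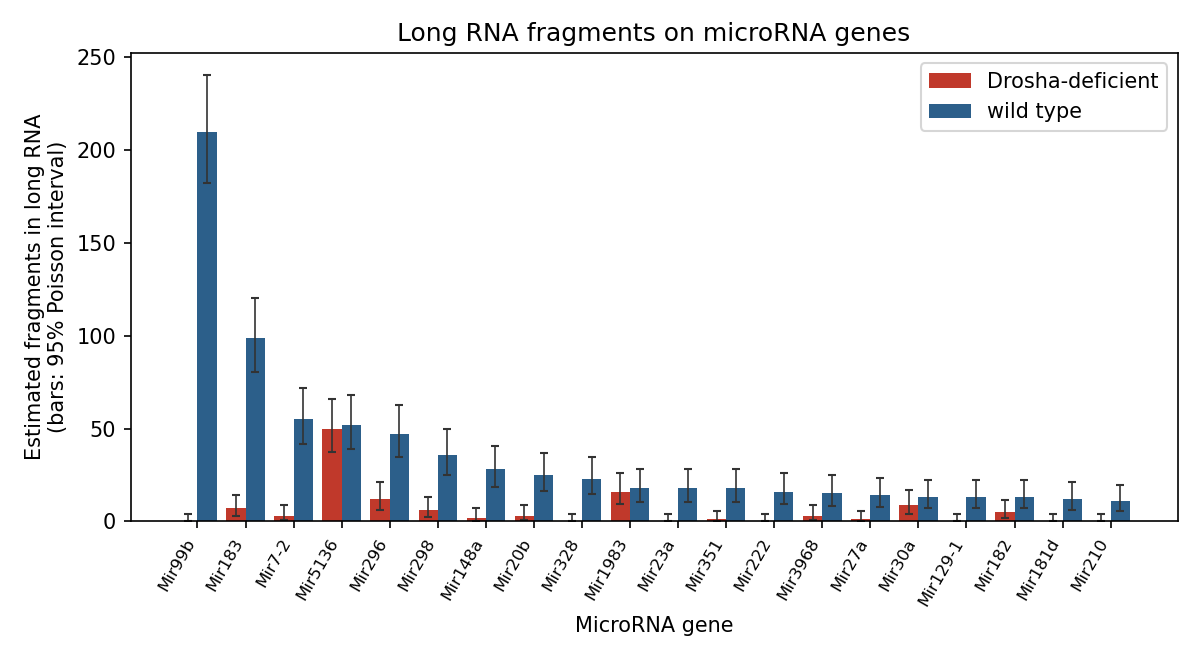
Estimated long RNA fragments (y axis) on the 20 microRNA genes with 10 or more fragments in 1 of both libraries, Mir6236 left out for its height, in Drosha-deficient cells (red, left) and wild-type cells (blue, right); error bars are exact 95% Poisson intervals. The intervals of Mir5136, Mir1983, Mir30a, Mir182 and Mir3968 overlap between the genotypes, with 50 against 52 fragments for Mir5136, while Mir99b has 0 against 210. Fragments are not divided by library depth.

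By FPKM, 5 of these 21 genes were neither higher nor lower in long RNA. Mir5136 had 102 FPKM (50 fragments) in Drosha-deficient cells, against 84.5 FPKM (52 fragments) in wild-type cells. Mir1983 had 16 fragments in Drosha-deficient cells, against 18 in wild-type cells. Mir30a had 14.9 FPKM (9 fragments) in Drosha-deficient cells, against 18.04 FPKM (13 fragments) in wild-type cells, where it kept 5.58% in short RNA. Mir6236 had 476 FPKM (707 fragments) in Drosha-deficient cells, against 575 FPKM (853 fragments) in wild-type cells. Mir182 had 10.6 FPKM (5 fragments) in Drosha-deficient cells, against 21.7 FPKM (13 fragments) in wild-type cells, and was lower by FPM (log2 difference -1.56). Mir30a, Mir1983 and Mir182 were all lower in short RNA, and Mir30a and Mir1983 are among the 5 genes that kept over 5% there.

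Higher values in long RNA rested on few fragments. Mir34a had 8.83 FPKM (9 fragments) in Drosha-deficient cells, against 1.84 FPKM (2 fragments) in wild-type cells. Mir19b-2 had 6.21 FPKM (4 fragments) in Drosha-deficient cells, against 0 in wild-type cells. Mir130a, Mir34b, Mir344b and Mir196a-1 had 1, 1, 2 and 3 fragments in Drosha-deficient cells, against 0, 0, 0 and 1 in wild-type cells. For Mir34a the exact interval of the Drosha-deficient rate, 77.3 to 3552% of the wild-type rate, includes equal rates.

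In mRNA the 93 genes were hardly measured, and no common direction was seen. Of 27 genes compared, 11 were lower in Drosha-deficient cells, 11 higher and 5 neither, and 64 of the 93 were at 0 in both libraries. Over all 14752 rows compared in mRNA, 7.93% were lower, 8.64% higher and 16.6% called in either direction. The median log2 difference of the 27 genes was 0.66, against 0.01 over all rows. Only 5 genes reached 10 fragments in 1 of both libraries, so the larger share of calls among the 27 sits on counts of a few fragments. The 49 microRNA rows left out had 22 higher and 11 lower of 37 compared, with a median of 1.48.

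Mir183 had 6.09 FPKM (2 fragments) in Drosha-deficient mRNA, against 77.0 FPKM (35 fragments) in wild-type mRNA. Mir7-2 had 5.91 FPKM (5 fragments) in Drosha-deficient mRNA, against 48.0 FPKM (46 fragments) in wild-type mRNA. Both were lower in all 3 fractions. Mir5136 had 2.34 FPKM (1 fragment) in Drosha-deficient mRNA, against 62.8 FPKM (35 fragments) in wild-type mRNA, and kept 2.51% (95% interval 0.062 to 14.9%). Its mRNA thus stood lower while its long RNA stood level. Mir19b-2 had 17.3 FPKM (10 fragments) in Drosha-deficient mRNA, against 0 in wild-type mRNA. Set against a floor of 3 wild-type fragments, that is 2.93-fold higher in FPM. Mir19b-2 was at 0 in Drosha-deficient short RNA, against 67.3 FPKM (11 fragments) in wild-type short RNA. Mir6236, a name listed with ribosomal or transfer RNA sequence, had 4254 FPKM (6162 fragments) in Drosha-deficient mRNA, against 2368 FPKM (3567 fragments) in wild-type mRNA, which is under 2-fold.

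Most of the other mRNA calls rested on 1 to 4 fragments. Mir29a, which represses collagens and DNA methyltransferases, had 6.10 FPKM (4 fragments) in Drosha-deficient mRNA, against 0 in wild-type mRNA. Mir196a-1, a microRNA of the Hoxb cluster, had 9.42 FPKM (9 fragments) in Drosha-deficient mRNA, against 2.83 FPKM (3 fragments) in wild-type mRNA. Mir322, Mir1983, Mir27a, Mir23a, Mir351, Mir146, Mir138-1 and Mir3968 had 1 or 2 fragments in Drosha-deficient mRNA, against 0 in wild-type mRNA. Mir99b, Mir181d, Mir184, Mir143, Mir222, Mir470 and Mir148a had 0 in Drosha-deficient mRNA, against 1 to 4 fragments in wild-type mRNA, and Mir298 had 1 fragment in Drosha-deficient mRNA, against 4 in wild-type mRNA. Among genes lower in short RNA, 10 were lower and 9 higher in mRNA. Of 15 genes called in both mRNA and long RNA, 5 were higher in mRNA and lower in long RNA: Mir27a, Mir23a, Mir351, Mir146 and Mir3968, each with 1 fragment in Drosha-deficient mRNA.

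Few of the transcripts that carry the hairpins could be measured. On the same strand, where both strands were known, 12 annotated hosts hold 15 of the 93 genes. Of these hosts, 3 were compared in each fraction, and none was called in mRNA or in long RNA. Nup93, a nuclear pore gene that holds Mir138-2, had 142 FPKM in Drosha-deficient mRNA, against 137 FPKM in wild-type mRNA. Dalrd3, which holds Mir425, had 14.5 FPKM in Drosha-deficient mRNA, against 22.2 FPKM in wild-type mRNA, while Mir425 had 0 short RNA fragments in Drosha-deficient cells, against 145 in wild-type cells. Hspa12a, which holds Mir3086, had 1.06 FPKM in Drosha-deficient mRNA, against 2.16 FPKM in wild-type mRNA. Over hosts on either or an unknown strand, 14 were compared in mRNA and 13 in long RNA, with 1 lower host apiece. In long RNA this was Spaca6, which spans Mir99b, with 1.31 FPKM in Drosha-deficient cells, against 5.80 FPKM in wild-type cells. Whether Spaca6 and Mir99b share a strand was not known from the sources used here. In mRNA it was Dnm1, antisense to Mir199b, with 4.48 FPKM in Drosha-deficient cells, against 10.6 FPKM in wild-type cells.

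The targeted gene was measured in both long fractions. Drosha had 6.22 FPKM in Drosha-deficient mRNA, against 42.1 FPKM in wild-type mRNA, and 4.34 FPKM in Drosha-deficient long RNA, against 21.2 FPKM in wild-type long RNA. Its partner Dgcr8 had 73.5 FPKM in Drosha-deficient mRNA, against 12.4 FPKM in wild-type mRNA, and was higher in long RNA too. Of the 10 genes that cut, export and load hairpins, 9 were compared in mRNA, where Dgcr8 and Ago1 were higher and Drosha was lower. In long RNA, 9 were compared, where Dgcr8 was higher and Drosha was lower. Dicer1, which trims the hairpin, had 26.04 FPKM in Drosha-deficient mRNA, against 16.6 FPKM in wild-type mRNA, and was not called. None of the ES cell markers measured (8 in mRNA, 7 in long RNA) was called, with summed mRNA levels of 2370 FPKM in Drosha-deficient cells, against 2283 FPKM in wild-type cells.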

How the data were processed

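The authors deposited 3 tables of gene-level FPKM values (short RNA, mRNA and long RNA), each with 1 wild-type and 1 Drosha-deficient value per row, per the file headers. The submitters' processing notes name TopHat2 2.0.10, Cufflinks 2.1.1, Cuffdiff, bcl2fastq 1.8.4 and the build mm10/GRCm38; the sources used here do not give the annotation, the use of strand or the scaling of libraries. By elimination the long RNA table was taken to hold the samples titled total RNA. Of 12 samples, the Dnmt1-deficient and methylation samples were not analysed here.

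Members and lists were chosen with earlier results of these data known. Rows were compared where the authors' status was OK and 1 library reached 1 FPKM; adding a pseudocount of 1 understates differences of low rows. FPKM are not counts, and with 1 library per group no test was run. Named were the 15 highest genes, those not lower in short RNA, those called in mRNA or long RNA, members of lists, and the edges of the choice.

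The value of 1 fragment was fitted per library on rows of up to 140 bases and tested on simulated data. Of low values, up to 20 fragments, 32 of 36 (88.9%) came out whole within 0.05 in Drosha-deficient short RNA and 100% in the other 5 libraries. Depth came from the steps of longer rows, as scaled by the authors: about 3178000 fragments in Drosha-deficient and 2726000 in wild-type short RNA, 26136000 and 22966000 in mRNA, and 23263000 and 19309000 in long RNA. Fragments per 1000000 (FPM) divide by these. Log2 ratios of fragments add 0.5 to each number. Of 14 genes the tables give a locus over 140 bases, and the RefSeq hairpin length was used where there is one; the row of Mir206 with mmu-mir-133b had no fragment estimate. Python 3.11.15, pandas 2.3.3, NumPy 2.4.6, SciPy 1.17.1 and matplotlib 3.10.9 were used.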

Additional observations from a re-analysis of the deposited data

Results flagged for a closer look

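Of the 93 genes, 4 were called in opposite directions in 2 fractions with at least 5 fragments in 1 of both libraries of each fraction. With 1 library per group, none of these differences between fractions was tested, and the fractions were normalized separately. Mir196a-1 had a log2 difference of Drosha-deficient minus wild type of 1.44 in mRNA and -8.75 in short RNA. In mRNA it had 9 fragments in Drosha-deficient cells against 3 in wild-type cells. The exact interval of that mRNA rate, 65.8 to 1514% of the wild-type rate, includes equal rates. Mir5136 had -4.26 in mRNA and 2.105 in short RNA, where it had 6 fragments in Drosha-deficient cells against 4 in wild-type cells; in fragments per 1000000 fragments the short RNA difference was 0.31, and the call as higher was lost. Mir19b-2, whose mature sequence Mir19b-1 also makes, had 4.2 in mRNA and -6.09 in short RNA. Mir34a had 1.79 in long RNA and -1.79 in short RNA, with 9 long RNA fragments in Drosha-deficient cells against 2 in wild-type cells.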

How the results depend on the processing

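No paired analysis was possible because each genotype has 1 library per fraction, and no library could be left out. No value of a gene called higher or lower changed sign under any alternative run. By FPM, some values that were neither by FPKM changed sign. In short RNA these were Mir503 from 0.06 to -2.001, Mir344b from 0.04 to -2.54 and Mir3968 from 0.34 to -0.71. In long RNA they were Mir5136 from 0.27 to -0.32 and Mir871, at 1 fragment in each library, from 0.20 to -0.27. Of the single-gene values that were rerun, 36 crossed the 2-fold line, 26 of them at a pseudocount of 5. In short RNA the counts under the other pseudocounts, status and minimum filters and centring stayed at 87 lower and 2 higher. The short RNA median was -8.2 at a pseudocount of 0.1. From 100 FPKM, 53 were lower and 1 higher of 56; by FPM 1 of 92 was higher; with 10 fragments or more, 57 were lower and 0 higher of 59. In mRNA, a pseudocount of 5 gave 6 lower and 2 higher with a median of 0.29, and a minimum of 5 FPKM 7 lower and 3 higher of 13 with a median of -1.29. From 100 FPKM the mRNA median was -0.48, by FPM 0.15, and with 10 fragments or more 3 of 5 were lower and 1 higher with a median of -2.83. In long RNA, the median was -3.46 at a pseudocount of 0.1 and -0.74 at 5, where 3 were higher. A minimum of 5 FPKM gave 3 higher and a median of -2.77, and with 10 fragments or more 16 of 21 were lower and 0 higher with a median of -3.17. Hosts on either or an unknown strand gave 1 lower in mRNA and 1 in long RNA. The cause of these shifts was not tested. The fragment scale and the limit of 10 fragments were added after the data had been seen. Fragments on genes under 75 bases are less certain in Drosha-deficient short RNA, where steps had to be read between gene lengths.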
